A study of Homo sapiens with 9 samples.

Results

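The Hedgehog pathway receptors and GLI factors were followed in LNCaP cells, a human line from metastatic prostate carcinoma, after recombinant NRG1, a growth factor that binds the receptor HER3, was added. The 9 genes are PTCH1, HHIP, CDON, BOC, SMO, SUFU, GLI1, GLI2 and GLI3, and they were picked out by gene symbol from the 37351 genes of the count table. All 9 were found. Sequencing of mRNA, from extracted total RNA, covered 9 libraries, 3 biological replicates each at 0, 12 and 24 h. All of the cells had first been kept in medium without serum and calcium, and the series gives the NRG1 dose as 15 ng/mL for every library. No library of buffer-treated cells at 12 or 24 h was analysed here, so that the effect of NRG1 and of the time in this medium cannot be told apart. All libraries come from 1 cell line, and the p-values measure the spread between these cultures, which were plated as triplicate wells.

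Hedgehog ligands bind PTCH1, which otherwise holds back the membrane protein SMO. Active SMO, in the primary cilium, releases the GLI transcription factors from their inhibitor SUFU. CDON and BOC are coreceptors that help the ligand bind PTCH1, and HHIP is a decoy that takes up ligand. GLI2 is mainly an activator, GLI3 mainly a repressor, and GLI1 an activator that is itself a target gene of the pathway, so that levels of GLI1, PTCH1 and HHIP are commonly read as a measure of pathway output. In the prostate the pathway is best known for ligand made by the epithelium that acts on the surrounding stroma. The study tested expression signatures, among them one for Sonic Hedgehog, whose genes were not in the sources used here. It reported upregulation of that signature at 12 h and at 24 h of NRG1, among signatures shared by LNCaP and the mouse line MyC-CaP. That result was not tested here. The comparisons below take the pathway's own receptors and factors gene by gene, with the interval of each change.

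The promoters of 3 of these genes are printed because PTCH1 and HHIP are the usual target genes of GLI factors and because CDON was the gene that fell at both times. Each is the stretch from 250 bases before to 50 bases after a transcription start in RefSeq's table for GRCh38.p14, 5′ to 3′ on the strand of the gene, with a GLI motif in capitals. The motif searched was GACCACCCA on both strands, which reads TGGGTGGTC on the other strand.
PTCH1, chr9:95509217-95509516, minus strand: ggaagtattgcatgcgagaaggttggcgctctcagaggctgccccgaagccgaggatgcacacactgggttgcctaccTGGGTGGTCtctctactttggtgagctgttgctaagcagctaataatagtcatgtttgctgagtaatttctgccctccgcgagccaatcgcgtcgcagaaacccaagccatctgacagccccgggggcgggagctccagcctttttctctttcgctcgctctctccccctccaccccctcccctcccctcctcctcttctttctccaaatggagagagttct
HHIP, chr4:144645906-144646205, plus strand: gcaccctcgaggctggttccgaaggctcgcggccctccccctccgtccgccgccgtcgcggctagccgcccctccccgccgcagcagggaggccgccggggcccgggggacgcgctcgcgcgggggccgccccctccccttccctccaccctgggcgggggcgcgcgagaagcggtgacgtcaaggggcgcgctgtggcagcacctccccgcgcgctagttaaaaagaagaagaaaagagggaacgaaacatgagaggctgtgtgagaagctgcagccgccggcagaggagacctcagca
CDON, chr11:126063252-126063551, minus strand: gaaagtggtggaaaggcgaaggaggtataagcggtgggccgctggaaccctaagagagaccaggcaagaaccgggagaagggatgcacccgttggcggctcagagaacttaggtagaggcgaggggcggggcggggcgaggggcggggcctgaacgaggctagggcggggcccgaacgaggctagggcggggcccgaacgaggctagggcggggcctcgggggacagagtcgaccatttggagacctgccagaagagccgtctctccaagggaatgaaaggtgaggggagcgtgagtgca
The window of PTCH1 held 1 match, at position -172 from the transcription start and on the strand opposite to the gene (chr9:95509430-95509438). The other 4 PTCH1 start sites of the table had no match, nor had any window of GLI2, SMO, SUFU, BOC, CDON or HHIP. Of all 35116 promoter windows of this length, 83 or 0.236% held the motif. The table had promoters for 7 of the 9 genes, all but GLI1 and GLI3. A match describes these letters only, and binding was not tested.

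Total counts per library were 47016302 to 60985825, with the deepest libraries at 0 h, and the 9 genes together took 6821 to 9023 reads per library. At this depth 3 reads equal 0.0492 to 0.0638 CPM, which are counts scaled to the size of each library. The genes were tested with edgeR's quasi-likelihood test in 1 fit of all libraries, with p-values adjusted by Benjamini and Hochberg over the 19250 genes that had enough reads, and 8 of the 9 genes were among them. A gene is called here at an adjusted p of at most 0.05. The 9 luminal prostate markers examined were all expressed, with a summed level of 4634 to 4763 CPM at 0 h, 4775 to 4822 CPM at 12 h and 4379 to 4589 CPM at 24 h. They moved with time as well, with 3 higher and 4 lower of 9 at 12 h and 2 higher and 6 lower at 24 h, where 18.7% and 21.1% of all tested genes were called. Basal markers summed to at most 0.325 CPM in any library, and the 9 stromal markers to 31.6 to 36.8 CPM, most of it COL1A1. Of the 6 stromal markers tested, 1 rose at 12 h, and 2 rose and 1 fell at 24 h. COL3A1, a fibrillar collagen, rose from 0.567 ± 0.252 CPM to 1.13 ± 0.0592 and 1.43 ± 0.259 CPM (adjusted p = 0.009 and 0.00032 from edgeR), LUM rose from 1.03 ± 0.0488 to 1.52 ± 0.149 CPM at 24 h (adjusted p = 0.0479 from edgeR), and VIM fell from 5.91 ± 0.373 to 4.78 ± 0.329 CPM (adjusted p = 0.0297 from edgeR), while COL1A2, DCN and FAP were at or near 0. Blood and endothelial markers summed to 13.1 to 13.9 CPM at 0 h, 8.60 to 9.82 CPM at 12 h and 7.12 to 8.05 CPM at 24 h, nearly all of it VWF. The part of these markers in the results on the Hedgehog genes was not tested.

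Of the 9 genes, SMO and SUFU had the highest levels per length and HHIP the lowest. On the scale of RPKM, in which reads are divided by exon length and library size, the mean over the 9 libraries was 6.03 for SMO, 5.81 for SUFU, 1.82 for PTCH1 and 1.61 for CDON. It was 0.518 for GLI3, 0.450 for BOC, 0.238 for GLI1, 0.0358 for GLI2 and 0.00348 for HHIP. SMO stood at percentile 68.2 of the tested genes in RPKM, PTCH1 at 45.7, GLI1 at 17.7 and GLI2 at 2.08. Neighbours in this order were separated in RPKM in all 9 libraries with no overlap of their ranges, except for SMO with SUFU, PTCH1 with CDON and GLI3 with BOC, whose ranges over the libraries overlapped. The order within each of these 3 pairs turned when the length of the canonical transcript was used in place of all exons. The mean RPKM was then 7.97 for SUFU against 7.20 for SMO, 3.88 for CDON against 3.64 for PTCH1, and 1.02 for BOC against 0.850 for GLI3.

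**Figure D1:**
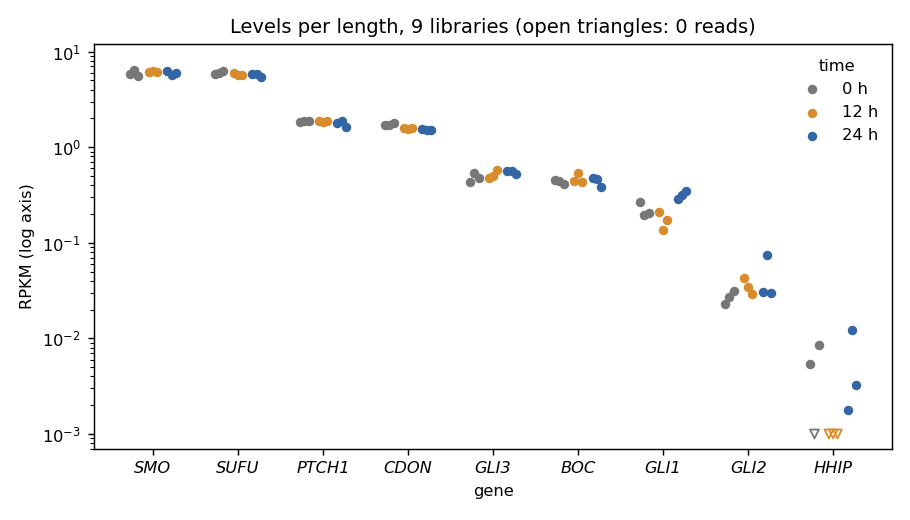
Level per exon length in RPKM (log axis) of the 9 Hedgehog genes, with 1 point per library coloured by time and open triangles for libraries with 0 reads. SMO and SUFU lie highest, GLI1 and GLI2 far lower with means of 0.238 and 0.0358 RPKM, and HHIP is at 0 in 4 of 9 libraries.

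Among the receptors, PTCH1 (ENSG00000185920.17, chr9:95442980-95517057, minus strand) is both the receptor for the ligand and a target gene. Its level was 31.6, 32.2 and 32.6 CPM at 0 h, 32.1, 31.3 and 32.7 CPM at 12 h, and 30.7, 32.6 and 27.9 CPM at 24 h. The lowest library was at 24 h, and the groups overlapped. The fitted change was -0.0062 ± 0.051 (SE) on the log2 scale at 12 h against 0 h, with an adjusted p of 0.956 from edgeR, and -0.081 ± 0.051 at 24 h, with an adjusted p of 0.296. The 95% intervals of the fold were 0.927 to 1.07 at 12 h and 0.880 to 1.02 at 24 h. A rise of PTCH1 above 1.07-fold at 12 h or above 1.02-fold at 24 h lay outside these intervals. The 3 long noncoding RNAs that overlap PTCH1 on the other strand had 0.872% to 3.81% of its reads.

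HHIP (ENSG00000164161.10, chr4:144646156-144745271, plus strand), the decoy that is also a target gene, was at the limit of detection. It had 4, 0 and 6 reads at 0 h, no read in the 3 libraries at 12 h, and 1, 8 and 2 reads at 24 h, which is 21 reads over all 9 libraries. Reads exceeded 3 in 3 of the 9 libraries. The 0 of the 12 h libraries allow a level of up to 0.0555 to 0.0615 CPM, and the highest library, at 24 h, was at 0.147 CPM. HHIP did not have enough reads to be tested, and no fold is given. In a fit without the count filter the adjusted p from edgeR was 0.117 at 12 h against 0 h, 0.962 at 24 h against 0 h and 0.155 at 24 h against 12 h.

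CDON (ENSG00000064309.16, chr11:125955796-126063335, minus strand), a coreceptor of the immunoglobulin superfamily, was the gene of the 9 that fell at both times. Its level was 34.2, 34.3 and 35.3 CPM at 0 h, 31.5, 31.0 and 31.4 CPM at 12 h, and 30.6, 30.1 and 30.3 CPM at 24 h. Every library at 12 or 24 h was below every library at 0 h. CDON fell by 9.50% at 12 h (log2 fold change -0.14 ± 0.045, SE; adjusted p = 0.0207 from edgeR) and fell by 12.3% at 24 h (-0.19 ± 0.045; adjusted p = 0.00191 from edgeR). The 24 h libraries were also all below the 12 h libraries, with a log2 difference of -0.045 and an adjusted p of 0.673. The call at 24 h was kept in each fit that left out 1 library. At 12 h it was lost without replicate 3 of 0 h (-0.13, adjusted p = 0.0852 from edgeR) and without replicate 1 (-0.15, 0.0584), replicate 2 (-0.13, 0.0869) or replicate 3 (-0.14, 0.0563) of 12 h. VSIG10L2 on the other strand covers 14.2% of the exon bases of CDON and had 34 reads against 15677.

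BOC (ENSG00000144857.15, chr3:113211003-113287459, plus strand), the coreceptor related to CDON, did not pass the test in any comparison. Its level was 4.73, 4.57 and 4.28 CPM at 0 h, 4.60, 5.49 and 4.46 CPM at 12 h, and 4.92, 4.86 and 3.94 CPM at 24 h. The groups overlapped. The log2 fold change was 0.10 at 12 h and 0.012 at 24 h against 0 h, with adjusted p-values of 0.628 and 0.959 from edgeR. CFAP44, a gene of the cilium and flagellum on the other strand, shares 530 exon bases with BOC, or 5.13% of its exons, and had 96.2% as many reads. Because the strand setting of the counting was not stated, reads from these shared bases cannot be assigned. CFAP44 differed by -0.13 at 12 h and by 0.0044 at 24 h on the log2 scale, with adjusted p-values of 0.479 and 0.986.

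SMO, the transducer (ENSG00000128602.11, chr7:129188633-129213545, plus strand), was at 27.8, 30.5 and 26.7 CPM at 0 h, 28.8, 29.9 and 28.8 CPM at 12 h, and 29.8, 27.3 and 28.2 CPM at 24 h. Its groups overlapped, and the log2 fold change was 0.042 at 12 h and 0.0045 at 24 h, with adjusted p-values of 0.658 and 0.968 from edgeR. SUFU, which binds and holds back GLI proteins (ENSG00000107882.12, chr10:102503972-102633535, plus strand), was at 39.8, 41.4 and 42.7 CPM at 0 h, 40.7, 39.1 and 39.2 CPM at 12 h, and 39.9, 39.8 and 37.1 CPM at 24 h. The groups overlapped here too, and the log2 changes of -0.058 and -0.084 at 12 and 24 h had adjusted p-values of 0.425 and 0.202 from edgeR. For SMO the 95% interval of the fold was 0.956 to 1.11 at 12 h and 0.931 to 1.08 at 24 h. For SUFU it was 0.902 to 1.02 at 12 h and 0.886 to 1.01 at 24 h.

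**Figure D2:**
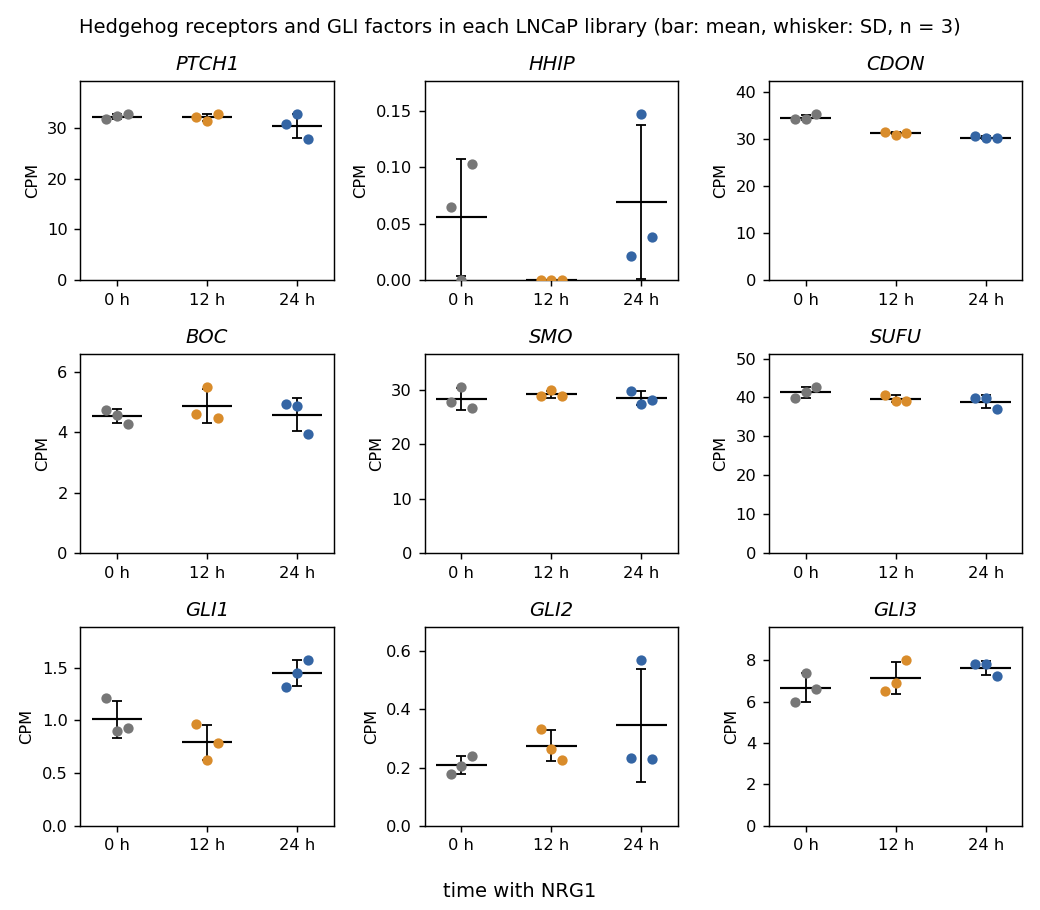
Level in CPM of each of the 9 Hedgehog genes by time with NRG1, with 1 point per library, the bar at the mean and the whisker at 1 SD (n = 3). The 3 libraries of CDON at 0 h (34.2 to 35.3 CPM) lie above all later ones, and the 3 libraries of GLI1 at 24 h (1.32 to 1.57 CPM) lie above all others.

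GLI1 (ENSG00000111087.10, chr12:57459785-57472268, plus strand), the factor that is also the best-known target gene, was higher at 24 h than at 12 h. It was at 1.21, 0.897 and 0.925 CPM at 0 h, 0.964, 0.625 and 0.785 CPM at 12 h, and 1.32, 1.45 and 1.57 CPM at 24 h, from 33 to 82 reads per library. All 3 libraries at 24 h were above the other 6, while 0 h and 12 h overlapped. At 24 h against 12 h GLI1 rose 1.83-fold (95% interval 1.31 to 2.56; log2 fold change 0.87 ± 0.24, SE; adjusted p = 0.0211 from edgeR). At 24 h against 0 h the log2 fold change was 0.52 ± 0.23 with a p of 0.0298 and an adjusted p of 0.11 from edgeR, and at 12 h it was -0.35 ± 0.24 with an adjusted p of 0.354 from edgeR. These comparisons share libraries. The difference between 12 h and 24 h holds both a lower 12 h mean and a higher 24 h mean than at 0 h. The means were 1.01 ± 0.173 CPM at 0 h, 0.791 ± 0.170 CPM at 12 h and 1.45 ± 0.127 CPM at 24 h (SD, n = 3 each). Neither step against 0 h was called.

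The rise of GLI1 from 12 h to 24 h lost its call without replicate 2 of 12 h (log2 fold change 0.73, adjusted p = 0.137 from edgeR), replicate 3 of 12 h (0.87, 0.0639), replicate 2 of 24 h (0.87, 0.0555) or replicate 3 of 24 h (0.81, 0.0902). In DESeq2 the log2 fold change was 0.87 and the unadjusted p 0.00174, and no adjusted p was given because the mean count was under its filter. ARHGAP9, a gene for a RhoGAP protein on the other strand, shares the last 5 exon bases of GLI1 and had 788 reads against 527. ARHGAP9 differed from 0 h by -0.30 (12 h) and 0.34 (24 h) on the log2 scale, with adjusted p-values of 0.339 and 0.236 from edgeR, and rose by 0.64 from 12 h to 24 h (adjusted p = 0.0478 from edgeR). The long noncoding RNA RP11-181L23.11 spans 3034 bases of GLI1 on the other strand with no shared exon base, and had 681 reads and a log2 fold change of 0.33 from 12 h to 24 h (adjusted p = 0.440 from edgeR). The part of reads from these overlapping genes in the GLI1 count was not tested.

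GLI2 (ENSG00000074047.22, chr2:120735623-120992653, plus strand), the activator, was read only 11 to 31 times per library. Its level was 0.178, 0.207 and 0.240 CPM at 0 h, 0.334, 0.265 and 0.227 CPM at 12 h, and 0.234, 0.570 and 0.230 CPM at 24 h. Replicate 2 of 24 h was above the other 8 libraries, and the groups overlapped. The log2 fold change at 24 h against 0 h was 0.74 (95% interval -0.22 to 1.69; adjusted p = 0.305 from edgeR), and 0.16 without that library. At 24 h against 12 h it was 0.33 (adjusted p = 0.780 from edgeR), and -0.25 without that library.

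GLI3 (ENSG00000106571.15, chr7:41960949-42264100, minus strand), the repressor, had the highest level per length of the 3 GLI genes in all libraries. Its level was 6.00, 7.38 and 6.60 CPM at 0 h, 6.52, 6.91 and 8.01 CPM at 12 h, and 7.82, 7.82 and 7.24 CPM at 24 h, and the groups overlapped. The log2 fold change was 0.10 at 12 h (adjusted p = 0.539 from edgeR) and 0.20 at 24 h, where the p was 0.0486 and the adjusted p 0.157 from edgeR. In RPKM, GLI3 made 65.9% ± 5.30 of the summed level of the 3 GLI genes at 0 h, 71.2% ± 5.41 at 12 h and 60.4% ± 3.04 at 24 h, and GLI1 made 30.4% ± 5.62, 23.8% ± 4.61 and 34.8% ± 3.15 (SD, n = 3 each). GLI2 made 3.69% to 4.94% on average at each time. These shares depend on the length used. With canonical transcripts the mean RPKM over the 9 libraries was 0.850 for GLI3, 0.273 for GLI1 and 0.0387 for GLI2. With all exons it was 0.518, 0.238 and 0.0358.

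Across the Hedgehog genes, 1 of the 8 tested was called at 12 h against 0 h, CDON, where 18.7% of all tested genes were called and 8.16% were called lower. At 24 h against 0 h it was again 1 of 8, where 21.1% of all tested genes were called and 9.48% lower. None of the 8 was called with a fold of at least 1.5 in either comparison by edgeR. By the same fit, 2.37% of all tested genes were called with that fold at 12 h and 3.31% at 24 h. In DESeq2 none of the 7 with an adjusted p was called with that fold. At an unadjusted p under 0.05 from edgeR, 1 of the 8 passed at 12 h and 3 at 24 h, none of them with that fold, where 29.6% and 31.2% of all tested genes passed. At 24 h against 12 h, 1 of 8 was called, GLI1, where 6.08% of all tested genes were called and 3.03% higher, and with a fold of at least 1.5 it was again 1 of 8, where 0.452% of all tested genes were called. In a test of any difference among the 3 times, GLI1 (adjusted p = 0.0157 from edgeR) and CDON (0.00347) passed, 2 of 8 where 25.1% of all tested genes did. The groups did not overlap for 1 of 8 genes at 12 h against 0 h and for 2 of 8 in each of the other comparisons, where 32.8%, 33.5% and 24.4% of all tested genes did not overlap. The median log2 fold change of the 8 genes was 0.018, 0.0085 and -0.032 in the 3 comparisons, beside -0.0084, -0.0068 and 0.0011 over all tested genes.

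The precision of the fitted change differed widely among these genes. The 95% interval, which is not adjusted for the number of genes tested, of the fitted change extended to either side by a factor of 1.07 for PTCH1, SUFU and CDON and 1.08 for SMO. It was 1.15 for GLI3 and 1.18 for BOC, 1.38 to 1.41 for GLI1 and 1.92 to 1.97 for GLI2. A change beyond this factor need not be called after adjustment, as for GLI1 at 24 h against 0 h, at 1.43-fold. For PTCH1, SMO, SUFU, CDON, GLI3 and BOC changes of 1.5-fold lay outside the interval in every comparison. For GLI1 and GLI2 the intervals against 0 h held a 1.5-fold change in at least 1 direction at both times, so that for these genes a change of that size cannot be set aside at this depth.

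**Figure D3:**
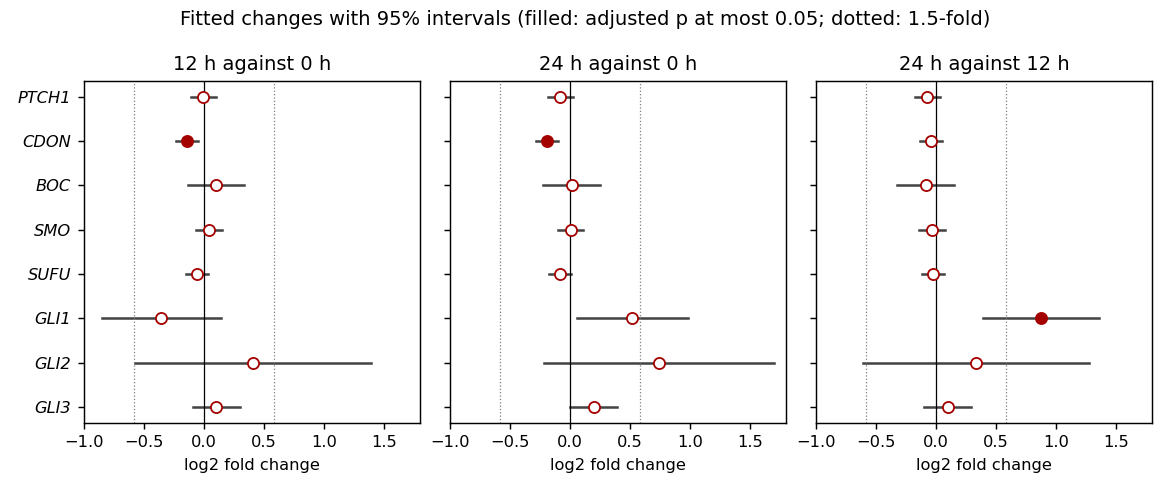
Fitted log2 fold change of the 8 tested Hedgehog genes with 95% intervals in each comparison (filled points: adjusted p of at most 0.05; dotted lines: 1.5-fold). CDON is called at 12 h and 24 h against 0 h and GLI1 at 24 h against 12 h, and the intervals of GLI1 and GLI2 are the widest.

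The genes whose levels followed GLI1, PTCH1 or SMO most closely were listed by Pearson's r of log2 CPM over the 9 libraries, as a description, among genes whose mean log2 CPM over the libraries was 2 or more. For GLI1 they were LYST, a regulator of lysosomal traffic (r = 0.964), DIPK1B (0.961) and MMP24OS (0.958). For PTCH1 they were VRK3, a kinase-related protein (0.954), CD99L2 (0.940) and PCDHGA2, a protocadherin (0.926). For SMO they were RAB28, a small GTPase (0.926), STARD3, a sterol transfer protein (0.894), and OAZ3 (0.893). For GLI1 11400 genes were compared, and for the others 11399, and the libraries share their time groups. Genes were picked for a high r, so its size is no test. The SD over the 9 libraries was 4.82% of the mean CPM for PTCH1 and 4.47% for SMO, beside 29.6% for GLI1. PTCH1 and SMO were called in no comparison, so their lists follow small differences between libraries.

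Other genes of the pathway, and zinc finger genes related to GLI, were read in 6 further lists. Of their 80 genes, 62 had enough reads. At 12 h against 0 h, 9 of the 62 rose and 4 fell. At 24 h 9 rose and 7 fell, and from 12 h to 24 h 3 rose and 1 fell. These 13, 16 and 4 calls stand beside 18.7%, 21.1% and 6.08% of all tested genes called, or 21.0%, 25.8% and 6.45% of the 62. The median log2 fold change of the 62 genes was -0.0016 at 12 h and -0.0052 at 24 h, beside -0.0084 and -0.0068 over all tested genes. The ligands themselves were hardly read, with 6 reads of SHH, 7 of IHH and 14 of DHH over all 9 libraries and at most 2, 5 and 4 reads in any one library. Of the 6 tested genes for ligand release, 1 passed, SCUBE3, a secreted protein of a family that aids release of the lipid-modified ligand, which fell by 0.93 on the log2 scale at 12 h from 1.02 ± 0.235 to 0.538 ± 0.177 CPM (adjusted p = 0.0199 from edgeR) and had -0.37 at 24 h (adjusted p = 0.394). None of the 8 tested other receptors and coreceptors, GAS1 and GPR161 among them, passed in any comparison by edgeR.

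Of the 19 tested regulators of GLI proteins, 3 rose and 1 fell at 12 h, and 2 rose and 2 fell at 24 h, or 21.1% called at each time beside 18.7% and 21.1% of all tested genes. PRKAR1A, the regulatory subunit of protein kinase A, was at 213 ± 2.11, 258 ± 8.0 and 291 ± 6.08 CPM at the 3 times in turn (SD, n = 3 each). It rose by 0.27 and 0.45 on the log2 scale (adjusted p = 3.5e-08 and 1.73e-13 from edgeR). PRKACB, a catalytic subunit of the same kinase, which promotes processing of GLI3 into its repressor form, fell by 0.11 and 0.15 (adjusted p = 0.0144 and 0.000519 from edgeR). DYRK2, a kinase of GLI proteins, rose by 0.26 at 12 h, and ULK3, another, rose by 0.13 and 0.18 at 12 h and 24 h (adjusted p = 0.00447, 0.0347 and 0.00208 from edgeR). NUMB, which takes GLI1 to degradation, fell by 0.18 at 24 h (adjusted p = 0.000969 from edgeR). The median of the 19 was 0.0015 at 12 h and -0.0099 at 24 h.

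Of the 15 genes for transport in the cilium, all tested, 2 rose and 1 fell at 12 h, and 2 rose and 2 fell at 24 h, or 20% and 26.7% called beside 18.7% and 21.1% of all tested genes. TTBK2, a kinase that starts cilium assembly, fell by 0.40 and 0.26 on the log2 scale (adjusted p = 4.56e-06 and 0.00115 from edgeR). RPGRIP1L, of the transition zone, rose by 0.26 at both times (adjusted p = 9.83e-05 and 8.93e-05 from edgeR), and CILK1, a ciliary kinase, by 0.15 and 0.18 (adjusted p = 0.00396 and 0.00057 from edgeR). BBS4, of a complex for cargo transport in the cilium, fell by 0.14 at 24 h (adjusted p = 0.0433 from edgeR). From 12 h to 24 h IFT140 rose by 0.18 (adjusted p = 0.00839 from edgeR).

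Of the 18 genes reported as GLI targets, 9 had enough reads, which leaves out MYCN and CCND2 among others. At 12 h 4 rose and 1 fell, and at 24 h 5 rose and 3 fell, or 55.6% and 88.9% of the 9 called, beside 18.7% and 21.1% of all tested genes. The median log2 fold change of the list was 0.057 and 0.19, beside -0.0084 and -0.0068 over all tested genes. BCL2, an inhibitor of cell death, went from 7.34 ± 0.276 to 11.5 ± 0.141 and 11.9 ± 0.553 CPM at 0, 12 and 24 h (log2 fold change 0.64 and 0.69; adjusted p = 6.07e-08 and 7.15e-09 from edgeR). WNT5A, a secreted WNT ligand, went from 13.8 ± 0.662 to 8.63 ± 0.764 and 7.91 ± 0.596 CPM (-0.68 and -0.81; adjusted p = 5.1e-08 and 1e-09 from edgeR). SNAI1, a repressor known from epithelial to mesenchymal transition, rose by 0.56 and 0.48, CCND1, the G1 cyclin D1, by 0.26 and 0.32, and HSD11B2, which inactivates cortisol, by 0.31 and 0.19 on the log2 scale. NKX6-1, a homeobox factor, fell by 0.73 at 24 h (adjusted p = 0.013 from edgeR) from 1.58 ± 0.266 to 0.948 ± 0.152 CPM. JAG2, a Notch ligand, rose by 0.21 at 24 h and FOXM1, a factor of mitotic genes, fell by 0.21 (adjusted p = 7.54e-05 and 0.000685 from edgeR). These genes are targets of other pathways too, and the list was chosen with results of these data known, so the counts are a description. Of the 5 tested GLI-related zinc finger genes, none passed in any comparison by edgeR.

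**Figure D4:**
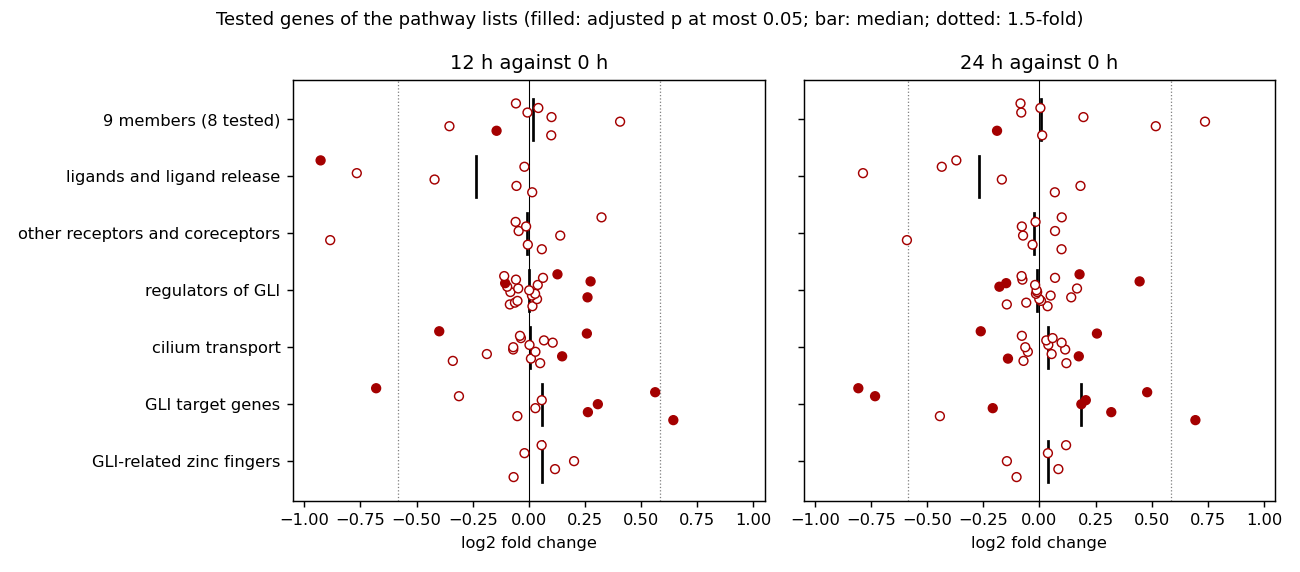
Fitted log2 fold change against 0 h of each tested gene in the 8 Hedgehog genes and 6 further lists, at 12 h and 24 h (filled: adjusted p of at most 0.05; bar: median of the list; dotted lines: 1.5-fold). The medians of the Hedgehog genes lie near 0, at 0.018 and 0.0085, and the GLI target list holds both risen genes, BCL2 at 0.69, and fallen ones, WNT5A at -0.81, at 24 h.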

How the data were processed

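Per the labels and the study's methods, mRNA libraries were sequenced as read pairs on an Illumina instrument, trimmed with Cutadapt, aligned to GRCh38.p13 with STAR and counted per gene of a GENCODE annotation with featureCounts. The authors deposited raw read counts, not normalized and not pooled, in 1 column per library, and the 14 empty columns of the table were not used. Strand and multi-mapping settings were not given in the sources used here. The methods left out 1 LNCaP replicate at 0 h without naming its experiment. The study's legend for the NRG1 series gives n = 3, and all 3 deposited at 0 h were used.

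Counts were filtered with filterByExpr, scaled by TMM and fitted with edgeR 4.0.16 in R 4.3.3 (robust quasi-likelihood, no covariate), on all 9 libraries. Adjusted p-values are by Benjamini and Hochberg over 19250 genes, and the 1.5-fold and 0.05 thresholds are those of the study's methods, which used DESeq2. DESeq2 1.42.0 was an alternative. The scripts were tested on simulated counts. CPM use TMM-scaled totals, and RPKM use exon lengths of GENCODE v44, with canonical transcripts added as an alternative after seeing the data. Depth covers counting error only. No pair of replicates agreed within sampling noise (chi-square per degree of freedom at least 3.10).

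Named genes are the 9 members, genes of the pathway lists past both thresholds or else the 3 largest called changes of a list, genes overlapping a member, and the 3 genes most correlated with GLI1, PTCH1 and SMO. PRKACB, NUMB, CILK1, BBS4, FOXM1 and JAG2, the markers given by name, and genes given as not passing, were named after their values were seen. Some genes of the lists are not reported here by name. Members and lists were chosen with earlier results of these data known.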

Additional observations from a re-analysis of the deposited data

Results flagged for a closer look

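Since 12 h and 24 h share the 0 h libraries, a difference between their effects is the direct comparison of 24 h with 12 h. By that test in edgeR, with p-values adjusted over all tested genes, 8 of the genes named above had effects that differed between the times. Over all tested genes, 6.08% were called in this comparison. PRKAR1A and IFT140 were named as called genes, and FOXM1 and JAG2 after their values were seen, so the 8 are a description. Their number cannot be set against that share. The 24 h level of GLI1 exceeded the 12 h level by 0.87 on the log2 scale (adjusted p = 0.0211), and all 3 libraries at 24 h were above all 3 at 12 h. ARHGAP9, which overlaps the end of GLI1 by 5 bases, was higher by 0.64 (adjusted p = 0.0478). LYST and MMP24OS, selected above for the likeness of their levels to GLI1, were higher by 0.28 and 0.19 (adjusted p = 0.0188 and 0.00055), which that selection favours. PRKAR1A was higher by 0.17 (adjusted p = 0.000457), IFT140 by 0.18 (adjusted p = 0.00839) and JAG2 by 0.15 (adjusted p = 0.0122). FOXM1 differed by -0.24 (adjusted p = 0.000747). Groups of 3 were too small for the check for single outlying libraries.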

How the results depend on the processing

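Leaving out 1 library at a time gave 0 to 1 called Hedgehog genes at 12 h against 0 h, 1 to 1 at 24 h against 0 h, 0 to 1 at 24 h against 12 h, with and without the 1.5-fold threshold, and 1 to 2 for any difference among the times (1 without replicate 2 of 12 h or replicate 3 of 24 h). The other alternatives (DESeq2, median-of-ratios factors, library totals, no count filter, a floor of 10 counts in each library, and fits of the 6 libraries under comparison) kept these counts where they gave a value, and DESeq2 gave no adjusted p for GLI1 at 24 h against 12 h. Over all alternatives the CDON change at 12 h was -0.15 to -0.13 with adjusted p of 0.0139 to 0.0869, at 24 h -0.19 to -0.17 with 0.0013 to 0.016, and the GLI1 change from 12 h to 24 h 0.73 to 1.04 with 0.0144 to 0.137. Directions turned in 13 alternative values of single genes, all of them for changes that passed no test. SMO at 24 h against 0 h became -0.00023 with a floor of 10 counts, and ran from -0.032 to 0.061 with 1 library left out (-0.0056, -0.032 and -0.028 without replicate 1 or 3 of 0 h or 1 of 24 h). PTCH1 at 12 h ran from -0.017 to 0.014 (0.0067 and 0.014 without replicate 3 of 0 h or 2 of 12 h). BOC at 24 h against 0 h ran from -0.039 to 0.11 (-0.022, -0.039 and -0.034 without replicate 3 of 0 h or 1 or 2 of 24 h), and against 12 h from -0.14 to 0.013 (0.013 and 0.011 without replicate 2 of 12 h or 3 of 24 h). From 12 h to 24 h GLI2 ran from -0.25 to 0.56 (-0.25 without replicate 2 of 24 h) and SUFU from -0.045 to 0.0071 (0.0071 without replicate 3 of 24 h). The cause was not tested. No pairing by replicate number was seen. Deviations from the group means correlated by -0.037 to 0.029 between same-numbered libraries and by -0.060 to 0.055 between others. With 3 libraries per time this does not exclude a pairing. With the replicate number as a block, CDON changed by -0.14 and -0.19 (adjusted p = 0.0244 and 0.00254 from edgeR) and GLI1 from 12 h to 24 h by 0.89 (0.02), and no call among the 8 genes changed. Depth limits what can be said of HHIP and GLI2 most.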
